A study of Mus musculus with 8 samples.

Results

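The angiomotins *Amot*, *Amotl1* and *Amotl2*, the Ajuba-family LIM genes *Ajuba*, *Limd1* and *Wtip*, and the tyrosine phosphatase gene *Ptpn14* were examined in the early mouse pancreas bud, as the rows of the authors' FPKM table that carry these 7 symbols, of 24341 genes in all. FPKM count fragments relative to transcript length and to library size, so levels can be compared between genes as well as between buds. The table covers 8 buds from embryos at E11.0 (about 40 somites), each a library of its own. Of these, 5 are labelled WT, and the 3 buds called Lats1/2-null here carry Pdx1Creearly with both floxed kinase genes, Lats1f/f and Lats2f/f. Cre driven by *Pdx1* deletes *Lats1* and *Lats2* in pancreatic progenitors and leaves other cells of the bud intact, and the mesenchyme had been pulled away by hand before RNA was isolated. The methods name CD1 mice for WT analyses and list the floxed and Cre lines apart from them, so they do not show a shared strain background. The methods describe the comparison embryos of the study in general as WT or heterozygous littermates, and no label ties a mutant bud to the litter of a WT bud.

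LATS1 and LATS2 are the kinases at the end of the Hippo cascade. They phosphorylate the coactivators YAP and TAZ and keep them out of the nucleus, where these would bind TEAD factors on DNA. The 7 genes encode adaptors around that step. Angiomotins are junctional and actin-binding scaffolds that hold YAP in the cytoplasm and assist LATS, AJUBA, LIMD1 and WTIP bind LATS at junctions and restrain it, and PTPN14 binds YAP and retains it in the cytoplasm. *Amotl2*, *Ptpn14* and *Ajuba* are commonly listed among genes that YAP and TEAD switch on, which makes them feedback components of the pathway.

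The libraries were sequenced to similar depth. In single-exon genes, 1 fragment in a transcript of 1000 bases was worth 0.0995 to 0.108 FPKM in 7 of the libraries. By this estimate, which rests on 8 to 14 genes per library, WT replicate 5 was the shallowest, at 0.131 FPKM (9 genes). At that worth the lowest value of any of the 7 genes, 4.79 FPKM for *Wtip* in WT replicate 5, corresponded to 36.5 fragments per 1000 bases of transcript, and the lowest gene in each other library to between 71.5 and 107. *Lats1* was lower in all 3 Lats1/2-null buds (10.1 to 13.8 FPKM) than in any WT bud (14.1 to 16.6 FPKM), while *Lats2* overlapped (11.1 to 13.4 against 11.6 to 14.7 FPKM). The progenitor marker *Pdx1* and the epithelial markers *Epcam* and *Cdh1* were present in every bud, and so were *Col1a1* and *Pdgfrb* of mesenchyme and *Pecam1* and *Cdh5* of endothelium, whereas *Ptprc* of leukocytes was at most 1.06 FPKM. The sum of 6 leukocyte markers was 7.8 to 15.4 FPKM in WT and 13.9 to 19.0 FPKM in Lats1/2-null buds. *Fcer1g* of that list was higher without overlap (3.17 to 5.39 against 1.96 to 2.41 FPKM), and the others overlapped between genotypes. Fewer cells of a type and less RNA per cell cannot be told apart in bulk RNA of a dissected bud.

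*Amotl2*, *Ajuba*, *Ptpn14* and *Wtip* were higher in each Lats1/2-null bud than in each WT bud, while *Amot*, *Amotl1* and *Limd1* overlapped between genotypes. Groups without overlap in that direction were found in 4.46% of the 13777 genes tested, those that averaged 0.5 FPKM or more. The ratio of means was 1.60 for *Ptpn14*, 1.59 for *Ajuba*, 1.52 for *Amotl2* and 1.33 for *Wtip*, against 1.122 for *Amotl1*, 1.04 for *Limd1* and 0.826 for *Amot*. None of the 7 genes passed an adjusted p of 0.05 in limma on log2(FPKM + 1), a threshold that 0.0145% of all genes passed. An unadjusted p under 0.05 with a higher level in Lats1/2-null buds was found for 3 of the 7 (*Ajuba*, *Amotl2* and *Ptpn14*), against 6.29% of all genes, and for the opposite direction for 0 of the 7, against 4.99%. Groups without overlap and lower in Lats1/2-null buds were likewise found for 0 of the 7, against 3.06%. Without Lats1/2-null replicate 3, an unadjusted p under 0.05 with a higher level was still found for 3 of the 7 (3.69% of all genes). Leaving out a bud cannot make separate groups overlap, so the 4 genes without overlap stayed so by construction (5.53% of all genes). The median log2 fold change of the 7 genes was 0.41, and that of all genes tested was -0.01.

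**Figure D1:**
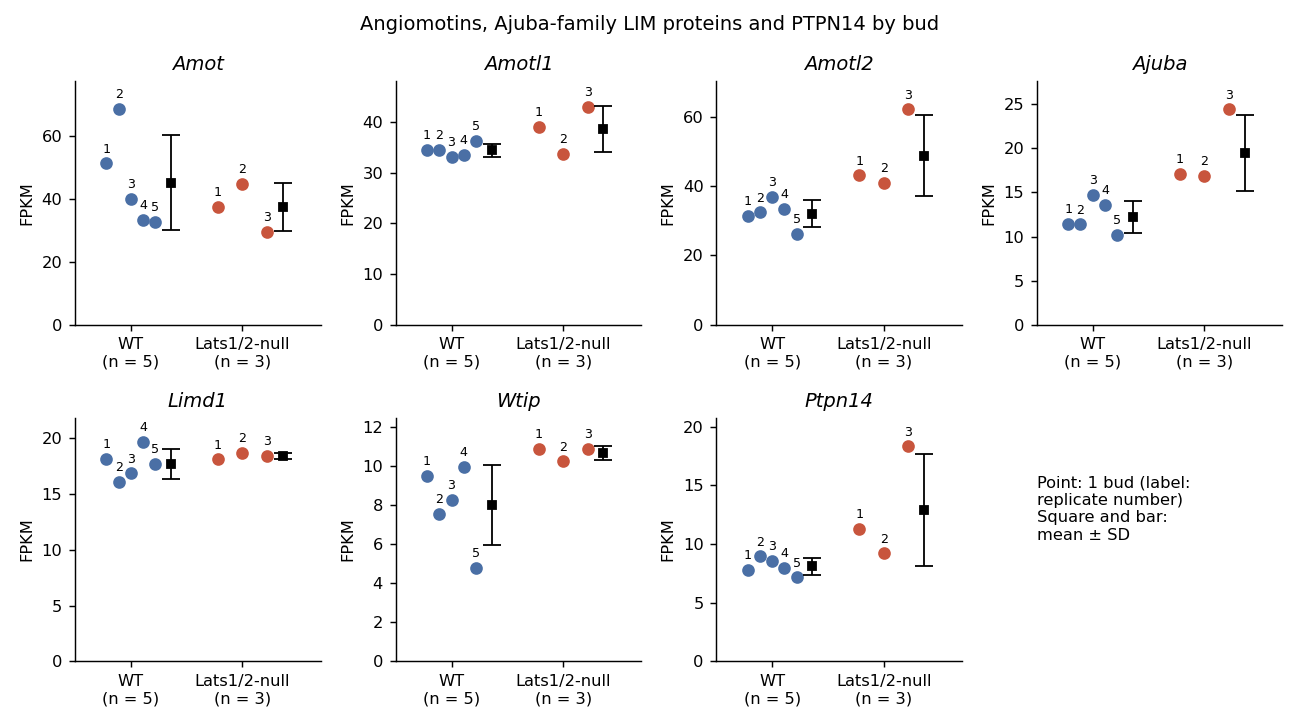
FPKM of each gene in the 5 WT (blue) and 3 Lats1/2-null (red) buds, with each point labelled by its replicate number and a square with bar for the mean ± SD. All 3 Lats1/2-null buds lie above the WT buds for Amotl2, Ajuba, Wtip and Ptpn14, and replicate 3 is the highest of them for each of these 4 genes.

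Of the angiomotins, *Amotl2* differed most. It lies on chromosome 9 of GRCm38 from 102717804 to 102733417 on the plus strand. Its FPKM in the 5 WT buds, in order of replicate number, were 31.5, 32.5, 37.0, 33.3 and 26.3, and in the 3 Lats1/2-null buds 43.1, 40.9 and 62.2. Every Lats1/2-null bud thus stood above the highest WT bud, and replicate 3 stood well above the other two. The means were 32.1 ± 3.85 FPKM (SD, n = 5) and 48.7 ± 11.7 FPKM (SD, n = 3). The log2 fold change was 0.57, with SE 0.15 (limma adjusted p = 0.222, unadjusted p = 0.00358), and the exact two-sided permutation test over the 56 splits of the buds gave its smallest possible p, 0.0179. Without Lats1/2-null replicate 3 the ratio of means was 1.31 and the log2 fold change 0.39.

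*Amotl1*, also on chromosome 9 (from 14541967 to 14615000, minus strand), encodes a scaffold of tight junctions. It was the steadiest of the angiomotins among WT buds, with 34.6, 34.5, 33.1, 33.5 and 36.4 FPKM, and it was at 39.1, 33.8 and 43.0 FPKM in Lats1/2-null buds. Lats1/2-null replicates 1 and 3 lay above the WT range and replicate 2 within it. The log2 fold change was 0.16 with a 95% interval of -0.02 to 0.33 (limma adjusted p = 0.518).

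*Amot*, the founding angiomotin, is X-linked (from 145446424 to 145487639, minus strand). It varied more among WT buds than between genotypes, at 51.2, 68.4, 40.0, 33.1 and 32.7 FPKM in WT and 37.5, 44.7 and 29.5 FPKM in Lats1/2-null buds. WT replicates 1 and 2 held the 2 highest values and Lats1/2-null replicate 3 the lowest. The log2 fold change was -0.23, with a 95% interval from -0.78 to 0.31 (limma adjusted p = 0.772), so a moderate change in either direction could not be told from none. The WT buds with the 2 highest *Amot* values also had the 2 lowest sums of 12 mesenchymal markers, 556 FPKM in replicate 2 and 616 FPKM in replicate 1 against 693 to 828 FPKM in the others. Among Lats1/2-null buds the order was the opposite, with *Amot* and the mesenchymal sum (599, 444 and 262 FPKM) both highest in replicate 2 and lowest in replicate 3. *Barx1*, the largest of the 12 markers, was at 234 and 173 FPKM in WT replicates 1 and 2. It was at 359 to 500 FPKM in the other WT buds. *Foxf1*, *Pdgfra* and *Twist1* were likewise lowest in WT replicates 1 and 2. *Col1a1*, *Col1a2*, *Col3a1*, *Pdgfrb*, *Wt1* and *Prrx1* were instead highest there, and *Nkx2-5* and *Tbx18* followed neither order. The part of mesenchymal cells in the *Amot* values was not tested.

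Since FPKM are scaled to length, the make-up of each family could be compared within a bud, on a scale that does not depend on library size. The 3 angiomotins summed to 112 ± 15.8 FPKM (SD, n = 5) among WT buds against 125 ± 8.75 (SD, n = 3) among Lats1/2-null buds, which did not exceed the spread between buds (two-sided exact permutation p = 0.214). *Amotl2* made up 26.9, 24.0, 33.6, 33.3 and 27.6% of that sum in the WT buds and 36, 34.3 and 46.2% in the Lats1/2-null buds, with no overlap and a mean difference of 9.75 percentage points (exact permutation test, two-sided, p = 0.0357). The share of *Amot* was 39.6 ± 7.35% (SD, n = 5) in WT and 30.2 ± 7.82% (SD, n = 3) in Lats1/2-null buds (exact permutation test, p = 0.161), and that of *Amotl1* was 31.4 ± 4.74% (SD, n = 5) and 31.0 ± 2.33% (SD, n = 3) (exact permutation test, p = 0.911). Of the 3 genes, *Amotl2* therefore went from the lowest mean share in WT to the highest in Lats1/2-null buds. The exact p for the *Amotl2* share was 0.143 without Lats1/2-null replicate 3 (6.08 points) and 0.0571 without WT replicate 1, 3, 4 or 5.

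**Figure D2:**
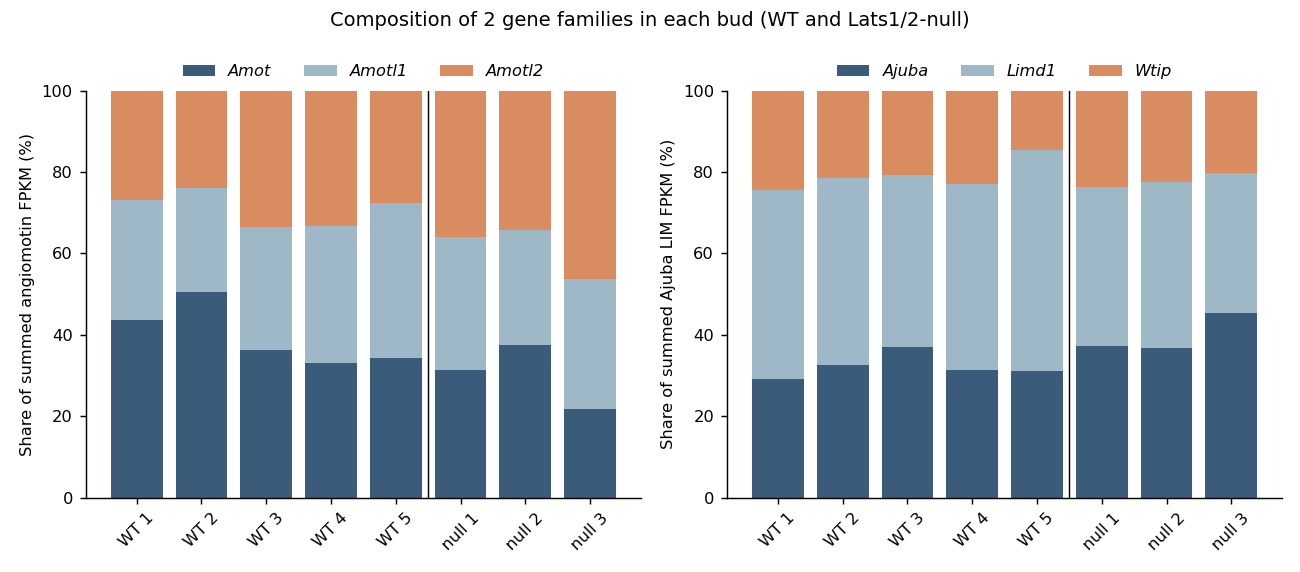
Share (%) of each gene in the summed FPKM of its family in each bud, the 3 angiomotins on the left and the 3 Ajuba-family genes on the right, with a line between WT and Lats1/2-null buds. The Amotl2 segment is 34.3% or more in Lats1/2-null buds and 33.6% or less in WT buds, and the Limd1 segment is 40.8% or less in Lats1/2-null buds and 42.3% or more in WT buds.

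*Ajuba* gave the largest log2 fold change of the 7 genes. AJUBA is a LIM-domain protein of adherens junctions, where it binds LATS under tension. The gene lies on chromosome 14 from 54567469 to 54577661 on the minus strand. It was at 11.4, 11.4, 14.7, 13.6 and 10.2 FPKM in WT buds and at 17.1, 16.8 and 24.4 FPKM in Lats1/2-null buds. The groups did not overlap, and replicate 3 was again the highest. The means were 12.3 ± 1.82 FPKM (SD, n = 5) and 19.5 ± 4.296 FPKM (SD, n = 3), with a log2 fold change of 0.62 (SE 0.15, limma adjusted p = 0.197, unadjusted p = 0.00248, exact permutation test, p = 0.0179). Without Lats1/2-null replicate 3 the log2 fold change was 0.45. Only 3.48% of the genes tested had a larger log2 fold change.

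*Limd1*, on chromosome 9 (from 123478701 to 123521552, plus strand), encodes another LIM adaptor that binds LATS at junctions, and it had the log2 fold change nearest to 0. Its FPKM were 18.1, 16.05, 16.8, 19.6 and 17.7 in WT and 18.1, 18.6 and 18.4 in Lats1/2-null buds, all 3 of which lay inside the WT range. The log2 fold change was 0.06, and its 95% interval, from -0.11 to 0.23, excluded a change as large as the estimates for *Ajuba*, *Amotl2* or *Ptpn14*.

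*Wtip*, on chromosome 7 (from 34109550 to 34133268, minus strand), encodes the third family member, first found as a partner of the kidney protein WT1. It was expressed at 9.49, 7.55, 8.25, 9.94 and 4.79 FPKM in WT and at a narrow 10.9, 10.2 and 10.9 FPKM in Lats1/2-null buds. The groups did not overlap, though WT replicate 4 came close to the lowest Lats1/2-null bud. The log2 fold change was 0.41 (SE 0.19, limma adjusted p = 0.485; exact permutation test, p = 0.0714). It was 0.26 without WT replicate 5, the shallow library with the lowest value.

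The 3 LIM genes summed to 37.9 ± 4.13 FPKM (SD, n = 5) among WT buds against 48.5 ± 4.51 (SD, n = 3) among Lats1/2-null buds, again with no overlap (exact permutation test, two-sided, p = 0.0179). *Ajuba* made up 32.3 ± 2.85% (SD, n = 5) of the sum in WT and 39.8 ± 4.89% (SD, n = 3) in Lats1/2-null buds (exact permutation test, p = 0.0357), and Lats1/2-null replicate 2, at 36.8%, overlapped WT replicate 3, at 36.9%. The share of *Limd1* was 46.8 ± 4.35% (SD, n = 5) and 38.1 ± 3.41% (SD, n = 3), without overlap (exact permutation test, p = 0.0179), and that of *Wtip* was 20.9 ± 3.73% (SD, n = 5) and 22.1 ± 1.68% (SD, n = 3) (exact permutation test, p = 0.714). These 8 tests of sums and shares were not adjusted for their number. The smallest p of the exact test is 0.0286 with 1 WT bud left out and 0.0476 with 1 Lats1/2-null bud left out. Without Lats1/2-null replicate 3 the p rose to 0.0952 for the sum, 0.143 for the *Ajuba* share and 0.190 for the *Limd1* share, at differences of 7.96 FPKM, 4.71 points and -6.82 points. The *Ajuba* share also missed the threshold without Lats1/2-null replicate 1 (exact permutation p = 0.0952) or without WT replicate 1, 2, 4 or 5 (0.0857 each), the sum without WT replicate 1, 2 or 3 and the *Limd1* share without WT replicate 1, 2 or 4 (0.0571 each).

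*Ptpn14* had the largest ratio of means, and that ratio rested most on a single bud. The gene spans chromosome 1 from 189728268 to 189876693 on the plus strand. Its FPKM were 7.82, 8.96, 8.55, 7.98 and 7.15 in WT and 11.3, 9.21 and 18.3 in Lats1/2-null buds. WT buds were tightly grouped, Lats1/2-null replicate 2 stood just above them and replicate 3 far above. The means were 8.09 ± 0.694 FPKM (SD, n = 5) and 12.9 ± 4.78 FPKM (SD, n = 3), with a log2 fold change of 0.57 (SE 0.18, limma adjusted p = 0.314, unadjusted p = 0.0129, exact permutation test, p = 0.0179). Lats1/2-null buds were higher by 60.0% on average, and by 26.8% without replicate 3, where the log2 fold change was 0.31.

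**Figure D3:**
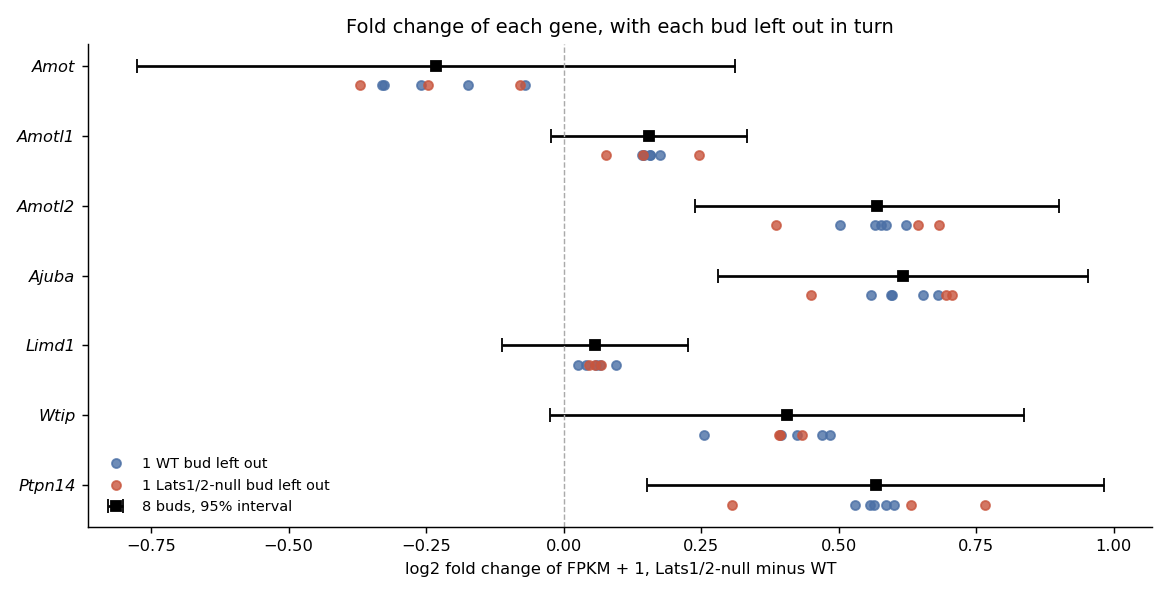
Log2 fold change of FPKM + 1 (Lats1/2-null minus WT) of each gene, as a black square with its 95% interval from all 8 buds and as coloured points with 1 WT (blue) or 1 Lats1/2-null (red) bud left out. The intervals of Amotl2, Ajuba and Ptpn14 lie above 0, and their lowest points, at 0.39, 0.45 and 0.31, come without Lats1/2-null replicate 3.

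The level of the 7 genes fell into an order that was partly shared by all buds. In WT buds the 3 angiomotins ranked above *Limd1*, *Limd1* above *Ajuba*, and *Ajuba* above both *Ptpn14* and *Wtip* in 5 of 5 buds. Within the angiomotins the WT ranges overlapped, with *Amot* above *Amotl1* in 3 of 5 buds and *Amotl1* above *Amotl2* in 4 of 5, and *Ptpn14* exceeded *Wtip* in 3 of 5. In Lats1/2-null buds *Amotl2* had the highest mean and exceeded *Amotl1* in 3 of 3 buds, with overlapping ranges, and *Ajuba* passed *Limd1* in 1 bud, replicate 3. *Amot*, at 45.1 FPKM, was above 86.4% of the tested genes in WT mean, and *Wtip*, at 8.0 FPKM, above 43.7%, so the 7 genes ran from middling to high expression.

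*Amotl2* and *Ajuba* had the most similar profiles over the 8 buds. Of all genes tested, *Ajuba* had the highest Pearson r of log2(FPKM + 1) with *Amotl2*, and *Amotl2* the highest with *Ajuba*, both at 0.983. The next were *Fam83h* for *Amotl2* (r = 0.983) and *Slc7a5*, an amino acid transporter gene, for *Ajuba* (r = 0.980). *Ptpn14* was closest to *Shtn1* (r = 0.992) and to *Ambp*, which encodes a plasma protein precursor (r = 0.988), and 129 genes reached an r over 0.95 with it. The sum of 6 liver markers was 93.2 to 162 FPKM in WT buds and 161, 122 and 358 FPKM in Lats1/2-null replicates 1, 2 and 3. *Ttr* alone was at 83.1 to 142 FPKM in WT buds and at 148, 107 and 318 FPKM in those Lats1/2-null buds. *Alb* was at most 4.11 FPKM in any bud, and each of the 6 markers overlapped between genotypes. The part of liver RNA in the *Ptpn14* values was not tested. *Amotl1* was closest to the transcription factor gene *Sim1* (r = 0.994) and to *Atp8b1*, which encodes a phospholipid flippase (r = 0.987). *Wtip* was closest to *Zbtb1* (r = 0.990) and *Btbd10* (r = 0.985), *Amot* to *Tmtc2* (r = 0.975) and *Creb3l1* (r = 0.971), and *Limd1* to *Zfp277* (r = 0.954) and *Rpn2* (r = 0.939). An r over 0.95 was reached by 53 genes with *Amotl2*, 41 with *Amotl1*, 23 with *Ajuba*, 10 with *Wtip*, 6 with *Amot* and 1 with *Limd1*. These values rest on 8 points that share library and genotype and describe these buds only.

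Among the genes with a promoter window, the 4 whose groups did not overlap were also those with a TEAD core motif near the start site. RefSeq promoters of GRCm38.p6, from 250 bases before to 50 after the start site, were searched for GGAATG on both strands (CATTCC being its reverse complement). A window was available for 6 of the 7 genes and not for *Limd1*, so only *Amot* and *Amotl1* stood in contrast to the 4. A match was present in *Amotl2* (1), *Ajuba* (2), *Wtip* (4) and *Ptpn14* (1), and in neither *Amot* nor *Amotl1*. The 250 bases before the start sites of *Amot* and *Amotl1* overlap exons of other transcripts of the same gene, as in *Amotl2*. Other start sites of these genes were not searched. At least 1 match was held by 14.7% of all 32851 promoter windows of the same length, and 2 or more by 1.33%. These counts are a description of letters and not of TEAD binding. The 250 bases before the start sites of *Ajuba*, *Wtip* and *Ptpn14*, where GENCODE M21 places no exon, are shown 5′ to 3′ on the strand of the gene with the matches in capitals, because they hold 7 of the 8 matches. For *Amotl2*, whose window overlaps an upstream exon of other *Amotl2* transcripts, the match is shown with 10 bases on each side.
Amotl2 (chr9:102717729-102717754, plus strand): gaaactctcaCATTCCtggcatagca
Ajuba (chr14:54577662-54577911, minus strand): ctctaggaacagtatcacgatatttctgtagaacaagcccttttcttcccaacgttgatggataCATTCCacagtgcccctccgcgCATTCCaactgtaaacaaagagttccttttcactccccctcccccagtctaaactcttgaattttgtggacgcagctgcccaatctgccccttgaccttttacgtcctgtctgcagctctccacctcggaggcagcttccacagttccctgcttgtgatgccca
Wtip (chr7:34133269-34133518, minus strand): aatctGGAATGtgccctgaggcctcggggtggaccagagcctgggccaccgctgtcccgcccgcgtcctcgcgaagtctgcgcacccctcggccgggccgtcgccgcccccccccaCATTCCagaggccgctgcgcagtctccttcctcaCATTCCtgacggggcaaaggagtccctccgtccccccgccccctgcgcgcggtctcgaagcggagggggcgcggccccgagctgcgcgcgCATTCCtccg
Ptpn14 (chr1:189728018-189728267, plus strand): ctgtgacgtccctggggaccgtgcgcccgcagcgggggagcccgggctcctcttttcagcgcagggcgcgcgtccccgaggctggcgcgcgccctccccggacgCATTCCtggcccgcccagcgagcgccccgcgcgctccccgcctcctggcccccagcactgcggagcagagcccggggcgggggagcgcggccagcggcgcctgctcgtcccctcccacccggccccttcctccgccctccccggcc

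Counted back from the start site, the first base of the match stood at -65 in *Amotl2*, at -186 and -164 in *Ajuba*, at -245, -134, -100 and -10 in *Wtip* and at -146 in *Ptpn14*. The upstream windows differed in base composition, with 50.8% G and C in *Ajuba*, 70.4% in *Amotl2*, 73.6% in *Wtip* and 80.8% in *Ptpn14*, against 44.8% in *Amot* and 58.4% in *Amotl1*.

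Epithelial markers were higher in the same buds, and their level was given beside the genes for that reason. The summed FPKM of 12 epithelial markers was 204 to 270 in WT and 485, 424 and 1038 in Lats1/2-null replicates 1, 2 and 3, and 12 of 12 markers were higher without overlap. The ratio of the mean sums was 2.65, and 1.86 without replicate 3, larger than the ratio of any of the 7 genes. Sums of 12 mesenchymal markers ran from 556 to 828 FPKM in WT and from 262 to 599 FPKM in Lats1/2-null buds, and those of 10 endothelial markers from 131 to 222 FPKM and from 92.8 to 146 FPKM. No marker of these 3 lists was at 0 in all buds. The sum of 8 pancreatic progenitor markers was 76.4 to 105 FPKM in WT and 132 to 343 FPKM in Lats1/2-null buds. The ratio of its means was 2.46, and 1.75 without Lats1/2-null replicate 3. Of these 8 markers, 7 had a positive and 1 a negative log2 fold change, and 4 were higher without overlap, against 4.46% of all genes. Among Lats1/2-null buds the epithelial sum had the same order as *Amotl2*, *Ajuba* and *Ptpn14*, with replicate 3 highest, then 1, then 2. Among WT buds the lowest epithelial sum, 204 FPKM in replicate 3, went with the highest *Amotl2* and *Ajuba*, and the highest, 270 FPKM in replicate 5, with the lowest values of *Amotl2*, *Ajuba* and *Ptpn14*. WT replicate 2, with nearly the same sum (268 FPKM), had the highest WT value of *Ptpn14* and middling *Amotl2* and *Ajuba*, so the WT buds showed no steady order. The part of epithelial content in the differences between genotypes was not tested.

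**Figure D4:**
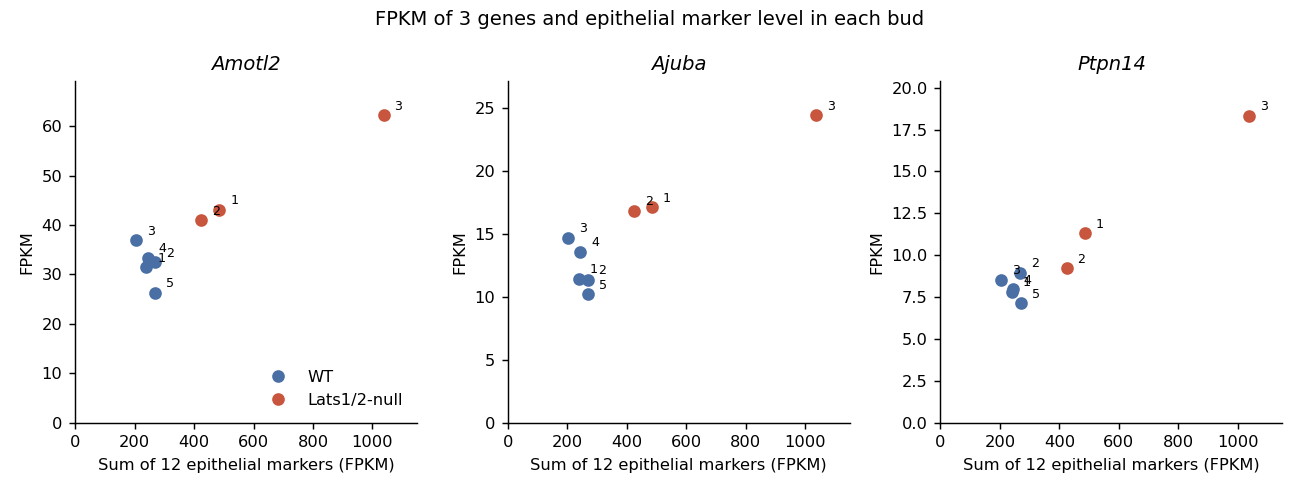
FPKM of Amotl2, Ajuba and Ptpn14 (y axes) against the summed FPKM of 12 epithelial markers (x axis) in each bud, WT in blue and Lats1/2-null in red, with replicate numbers. Lats1/2-null replicate 3 is highest on both axes in each panel, and WT replicate 5 is the lowest in all 3 genes at a WT epithelial sum of 270. In that bud Krt8 and Krt18 were the highest, and Epcam the lowest, of the WT buds.

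The genes that act with these adaptors were compared in the same fit, where an adjusted p under 0.05 was reached by 0 of them and the counts therefore use the unadjusted p. Over all genes tested, 46.9% had a positive log2 fold change. An unadjusted p under 0.05 was found for 6.29% with a higher and 4.99% with a lower level in Lats1/2-null buds. Of 4 tyrosine phosphatases related to PTPN14, all had a positive log2 fold change (median 0.49), and 2 had an unadjusted p under 0.05, both higher in Lats1/2-null buds. *Ptpn21*, the closest relative of *Ptpn14*, was at 6.57 ± 0.647 FPKM (SD, n = 5) among WT buds against 11.9 ± 5.05 (SD, n = 3) among Lats1/2-null buds (log2 fold change 0.70, limma adjusted p = 0.281). *Ptpn3*, a phosphatase with a FERM domain, was at 2.09 ± 0.270 (SD, n = 5) against 3.82 ± 1.41 FPKM (SD, n = 3) (log2 fold change 0.61, limma adjusted p = 0.291), and *Ptpn13* had a log2 fold change of 0.37. The median of the 4 was 0.28 without Lats1/2-null replicate 3. Of 4 zyxin-type LIM relatives of AJUBA, 0 were under that p, and their median log2 fold change was -0.01. *Trip6*, *Zyx* and *Fblim1* had log2 fold changes of 0.19, -0.08 and 0.05.

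Among 7 enzymes that mark angiomotins for destruction or spare them, the median log2 fold change was -0.05. An unadjusted p under 0.05 was found for 1 of the 7, against 11.3% of all genes in both directions together. This was *Nedd4l*, a ubiquitin ligase, at 5.39 ± 0.543 FPKM (SD, n = 5) among WT buds against 8.68 ± 2.52 (SD, n = 3) among Lats1/2-null buds (log2 fold change 0.57, limma adjusted p = 0.269). Its relative *Nedd4* was among the abundant transcripts of the bud, at 529 ± 22.2 (SD, n = 5) against 490 ± 29.7 FPKM (SD, n = 3), and *Rnf146*, which acts with tankyrases, had a log2 fold change of -0.08. Of 11 junctional partners of angiomotins (median log2 fold change 0.03), 1 was higher and 2 were lower at that p, against 6.29% and 4.99% of all genes. *Inadl*, which encodes the tight junction scaffold PATJ, was at 9.87 ± 0.887 (SD, n = 5) against 18.0 ± 7.62 FPKM (SD, n = 3) (log2 fold change 0.73, limma adjusted p = 0.279). *Mpp5*, which encodes its partner PALS1, was instead at 20.8 ± 1.85 (SD, n = 5) against 17.6 ± 0.129 FPKM (SD, n = 3) without overlap (log2 fold change -0.23, limma adjusted p = 0.330), and *Mpdz*, a paralog of *Inadl*, had a log2 fold change of -0.25. Of 7 adherens junction genes, *Cdh1* alone was under that p, with 25.2 ± 4.13 FPKM (SD, n = 5) among WT buds against 58.8 ± 31.7 (SD, n = 3) among Lats1/2-null buds, while *Ctnnd1* and *Mllt4* had log2 fold changes of 0.16 and 0.22.

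Of 22 genes of the Hippo core and its transcription factors, 4 were higher and 1, *Lats1*, was lower in Lats1/2-null buds at an unadjusted p under 0.05. Over all genes these shares were 6.29% and 4.99%. The median log2 fold change of the 22 genes was 0.02. The 3 with the smallest p were upstream activators of LATS and a TEAD factor. *Frmd6* was at 3.85 ± 0.622 (SD, n = 5) against 9.31 ± 2.75 FPKM (SD, n = 3) (log2 fold change 1.06, limma adjusted p = 0.109). *Wwc1*, which encodes KIBRA, was at 10.2 ± 1.25 (SD, n = 5) against 21.8 ± 10.7 FPKM (SD, n = 3) (log2 fold change 0.94, limma adjusted p = 0.212), and *Tead4* at 2.29 ± 0.317 (SD, n = 5) against 5.33 ± 2.87 FPKM (SD, n = 3) (log2 fold change 0.86, limma adjusted p = 0.267). In a signature of 22 YAP and TAZ targets, which counts *Amotl2* and *Ptpn14* among its members, the other genes were split, with 9 of 19 tested higher, 10 lower and a median of -0.01. Of all genes tested, 46.9% were higher. At an unadjusted p under 0.05, 4 of these 19 were higher and 4 lower, against 6.29% and 4.99% of all genes. The 3 smallest p-values of the signature belonged to *Ankrd1*, *Ctgf* and *Myof*. *Ankrd1* was listed at 0 in 4 of 5 WT buds and at 2.29 to 8.81 FPKM in Lats1/2-null buds. *Ctgf* and *Myof* had log2 fold changes of 1.29 and 1.61, each above that of any of the 7 adaptor genes.

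**Figure D5:**
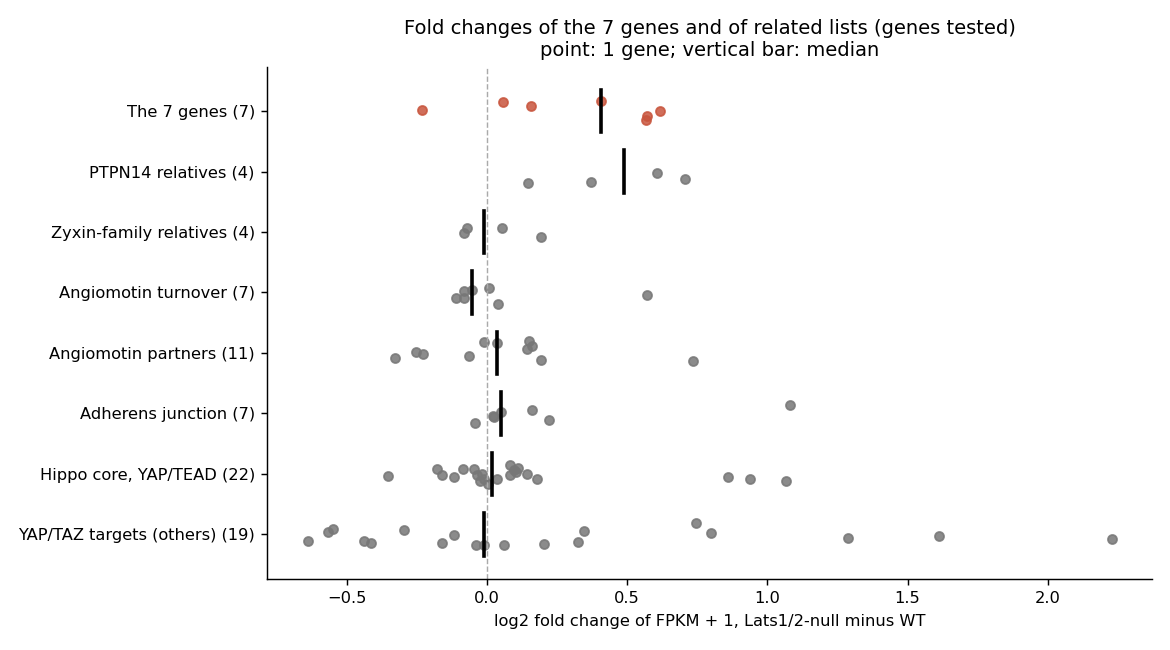
Log2 fold change of FPKM + 1 (Lats1/2-null minus WT) of the 7 genes (red) and of the tested genes of 7 related lists without those 7 (grey), with a vertical bar at each median and the number tested in brackets. The medians of the 7 genes and of the PTPN14 relatives, 0.41 and 0.49, stand to the right of 0, and those of the other lists lie between -0.05 and 0.05.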

How the data were processed

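Total RNA of single E11.0 buds was sequenced after ribosomal RNA depletion with a stranded kit. Per the labels and methods, the authors trimmed reads (cutadapt 1.12), aligned them to mm10 (TopHat2 2.1.0) and deposited FPKM per gene from Cuffdiff 2.2.1. The methods speak of quantile normalization, but upper quartiles of genes above 0 ran from 19.8 to 21.5 FPKM, and values were used as deposited. limma 3.58.1 (R 4.3.3) was fitted with a mean-variance trend to log2(FPKM + 1) of the 13777 genes that averaged 0.5 FPKM or more, without covariates. A pseudocount of 1 understates changes of low genes. P-values were adjusted by Benjamini-Hochberg over all of them (threshold 0.05). Single genes, sums and shares were compared by the exact permutation test. The 7 genes, the lists and the tests were chosen with earlier results of these data known. The 7 genes, the 3 of each list with the smallest p, the 2 most alike in profile and fixed markers are named. Locus starts in the table count from 0 and were raised by 1. No label says that buds were from separate litters, so p-values measure the spread between buds. The motif search used RefSeq promoters. Figures used matplotlib 3.10.9.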

Additional observations from a re-analysis of the deposited data

How the results depend on the processing

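Over 16 alternatives each, the log2 fold changes of the 7 genes kept their sign and their side of the adjusted threshold. With buds left out in turn they ran from 0.45 to 0.71 for *Ajuba*, 0.39 to 0.68 for *Amotl2*, 0.31 to 0.77 for *Ptpn14*, 0.26 to 0.48 for *Wtip*, 0.08 to 0.25 for *Amotl1*, 0.03 to 0.09 for *Limd1* and -0.37 to -0.07 for *Amot*. The lowest adjusted p was 0.0661 for *Ajuba* and 0.0729 for *Amotl2*, both with limma's array weights. The unadjusted p was under 0.05 in 15 of 15 unpaired alternatives for *Ajuba*, *Amotl2* and *Ptpn14*, in 4 for *Wtip*, in 2 for *Amotl1* and in 0 for *Amot* and *Limd1*. Genes called over the whole table numbered 2, and 18 with a pseudocount of 0.1, 174 with array weights, 1 without the mean-variance trend, and 0 to 19 with a bud left out (19 without Lats1/2-null replicate 3, 6 without 2 and 1 without 1, 4 without WT replicate 4, and 0 without any other WT bud). Genes at an unadjusted p under 0.05 numbered 1553, and 2578 with array weights and 812 to 2035 with a bud left out, the lowest without Lats1/2-null replicate 3. The causes were not tested.

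Replicate numbers 1 to 3 occur in both groups, but same-numbered buds did not deviate together (r = 0.09, -0.10 and 0.07 across genes), and not every bud correlated best with its own number. With the replicate number as a block over these 6 buds, 1 gene was called, the log2 fold changes were 0.59 for *Ajuba*, 0.50 for *Amotl2*, 0.51 for *Ptpn14*, 0.31 for *Wtip* and -0.49 for *Amot* (unadjusted limma p under 0.05 for *Amot*, 0.00115, *Wtip*, 0.0309, *Ajuba* and *Amotl2*, and 0.0614 for *Ptpn14*), and the differences in share were 10.7 points for *Amotl2*, 6.91 for *Ajuba*, -13.3 for *Amot* and -0.15 for *Wtip* (exact permutation p of 0.250, the smallest that 3 pairs allow, for the first 3). With a bud left out, differences in share ran from 6.08 to 12.03 points for *Amotl2*, 4.71 to 9.03 for *Ajuba*, -13.0 to -5.21 for *Amot* (the latter without Lats1/2-null replicate 3), -10.1 to -6.82 for *Limd1*, -1.85 to 1.31 for *Amotl1* and -0.35 to 2.11 for *Wtip*, with changes of sign in the last pair, *Amotl1* without WT replicate 4 (0.15) or 5 (1.31) or Lats1/2-null replicate 2 (0.94) and *Wtip* without WT replicate 5. The sum of the LIM genes differed by 7.96 to 11.95 FPKM and that of the angiomotins by 7.94 (without Lats1/2-null replicate 3) to 18.9 FPKM. The median log2 fold change of the PTPN14 relatives, 0.49, was 0.29 with array weights and 0.28 without Lats1/2-null replicate 3. The sums and the shares of *Limd1* and *Amotl1* were added after seeing the data.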

Other observations

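The TEAD core motif was counted in the promoters of the genes that differed most, as a background to the matches in *Amotl2*, *Ajuba*, *Wtip* and *Ptpn14*. Among 8185 tested genes with a single RefSeq promoter window, 11.97% held GGAATG on either strand. The share was 16.6% of the 477 such genes that were higher in Lats1/2-null buds at an unadjusted p under 0.05, and 13.3% of the 414 that were lower. These shares are a description, and their difference was not tested.

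*Amot* differed among WT buds that also differed in red blood cell markers. WT replicates 1 and 2, with the highest *Amot*, had summed FPKM of 6 red blood cell markers of 2580 and 5270, and WT replicates 4 and 5, with the lowest, had 15331 and 11776. Lats1/2-null buds lay between, at 7802 to 9867 FPKM. The part of these cells in the *Amot* values was not tested.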
